A study of Mus musculus with 16 samples.

Results

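The expression of 8 genes known from Schwann cells and myelin was followed in mouse skin after exposure to space environment (ESE). The genes are Mbp, Pmp22, Prx, Mag, Cdh19, Erbb3, Scn7a and Ncam1, taken by symbol from a count table of 14858 genes, and all 8 were present in it. RNA came from the hind limb skin of 16 young female BALB/cAnNTac mice, aged 10 to 16 weeks, with 1 library per mouse. The groups were the responder ESE cohort (low 5mC, 4 mice), the non-responder ESE cohort (high 5mC, 6 mice) and the ground controls (6 mice), where 5mC is the methylated cytosine by whose skin level the study divided its flown mice. ESE mice had lived on the International Space Station (ISS), and the ground controls were kept on Earth in similar housing. In the live animal return (LAR) arm the ESE mice spent 40 days in space and were killed 2 days after landing, whereas in the ISS arm they were killed on orbit after 22 to 23 days. Each arm held 5 ESE mice, 2 of them responders, and 3 ground controls, so exposure and arm were crossed, but time in space, return and landing cannot be told apart within the arm. No transgene or drug was used, and the cohorts were defined by the skin itself rather than by a treatment.

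Schwann cells are the glia of peripheral nerves. Myelinating Schwann cells wrap single axons in a compact sheath built from proteins such as myelin basic protein and peripheral myelin protein 22, and non-myelinating Schwann cells hold bundles of thin axons. Their growth and myelination depend on neuregulin, an axonal ligand read by the receptor pair ErbB2 and ErbB3, and on the transcription factors Sox10 and Egr2. In skin these cells lie along dermal nerves and nerve endings and form a small share of the tissue. Several of the genes are also known outside nerve: Erbb3 and Erbb2 in epithelial cells, Ncam1 in muscle and in the hair follicle, and Mbp, through transcripts called Golli, in cells that make no myelin. Counts were per gene, so Golli and myelin transcripts of Mbp were not separated.

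RefSeq promoter windows (GRCm38.p6, the assembly behind mm10) were found for 4 of the 8 genes. The 250 bases before 1 start of each are shown, 5′ to 3′ on the gene's strand, because Scn7a and Pmp22 both reached their highest levels in the same 2 libraries, and because Prx and Mag are textbook myelin genes. Capitals mark the letters ACAAAG or ACAATG, as bound by SOX factors, and GCGTGGG or GCGGGGG, as bound by EGR factors, on either strand.
Scn7a (chr2:66784911-66785160, minus strand): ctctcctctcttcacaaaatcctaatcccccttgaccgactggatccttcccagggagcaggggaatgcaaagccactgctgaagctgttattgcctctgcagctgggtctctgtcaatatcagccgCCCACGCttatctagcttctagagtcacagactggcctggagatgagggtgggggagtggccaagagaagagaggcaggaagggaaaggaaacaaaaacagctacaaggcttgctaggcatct
Pmp22 (chr11:63128732-63128981, plus strand): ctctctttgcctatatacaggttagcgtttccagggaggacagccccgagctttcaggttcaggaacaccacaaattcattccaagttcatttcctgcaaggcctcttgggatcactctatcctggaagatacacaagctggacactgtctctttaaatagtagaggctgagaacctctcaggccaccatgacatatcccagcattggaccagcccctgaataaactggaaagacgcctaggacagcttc
Prx (chr7:27499074-27499323, plus strand): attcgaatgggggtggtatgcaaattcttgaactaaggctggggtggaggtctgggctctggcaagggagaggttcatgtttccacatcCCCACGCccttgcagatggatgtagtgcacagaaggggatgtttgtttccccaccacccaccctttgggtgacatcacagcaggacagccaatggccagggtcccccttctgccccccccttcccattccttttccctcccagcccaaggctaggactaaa
Mag (chr7:30914923-30915172, minus strand): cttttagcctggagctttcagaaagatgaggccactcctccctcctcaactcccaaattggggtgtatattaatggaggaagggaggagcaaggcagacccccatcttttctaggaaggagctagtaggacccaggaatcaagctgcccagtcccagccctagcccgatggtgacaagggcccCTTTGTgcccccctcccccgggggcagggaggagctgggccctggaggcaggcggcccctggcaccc
The Scn7a and Prx windows each held 1 EGR match, starting 123 and 161 bases before the RefSeq start of that window, and the Mag window held 1 SOX match, starting 67 bases before its own RefSeq start at 30914922, which lies upstream of the gene start in the deposited table. The window of another RefSeq start of Mag, at 30914321, held no match. The Pmp22 window held neither. Of 32851 promoter windows of this length, 13% held an EGR match and 25.2% a SOX match, so such matches are common, and they are a description of letters only.

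Among the myelin genes, Mbp (chromosome 18, 82475123 to 82585637, plus strand, mm10) encodes myelin basic protein, which binds the cytoplasmic faces of the sheath together. Pmp22 (chromosome 11, 63128982 to 63159547, plus strand) encodes a membrane protein of compact myelin, whose extra copy causes a demyelinating neuropathy in humans. Prx (chromosome 7, 27499324 to 27520041, plus strand) encodes periaxin, a scaffold of the outer Schwann cell membrane. Mag (chromosome 7, 30899183 to 30914832, minus strand) encodes myelin-associated glycoprotein, an adhesion receptor facing the axon. Erbb3 (chromosome 10, 128569368 to 128589501, minus strand) encodes the neuregulin-binding receptor. Cdh19 (chromosome 1, 110889195 to 110977372, minus strand) encodes a cadherin of the Schwann cell lineage, Ncam1 (chromosome 9, 49502146 to 49799069, minus strand) encodes neural cell adhesion molecule, which marks non-myelinating Schwann cells, and Scn7a (chromosome 2, 66673426 to 66784910, minus strand) encodes the sodium channel Nax. The microRNA gene Mir6917 overlapped Erbb3 on the same strand and held 66 counts over all libraries, against 51148 for Erbb3.

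Library depth ranged from 4159342 to 22593931 counts, and the share of reads from ribosomal RNA from 13.32% to 57.29%. RNA was degraded in every mouse, with an RNA integrity number (RIN) of 1.2 to 2.1 in ESE mice and 1.8 to 2.7 in ground controls. Levels are given as CPM, read counts scaled to library size with TMM factors. Levels of other cell types differed widely between libraries. Summed skeletal muscle markers ran from 43.9 to 21784.9 CPM in ESE mice and from 49.4 to 313448 CPM in ground controls, with the highest sum in ground control replicate 6. Summed endothelial markers reached 743 CPM and summed adipocyte markers 6775 CPM in non-responder replicate 4, against medians of 45.7 and 328 CPM in the ESE mice of the ISS arm. These 2 libraries stood apart, and values without them are given beside the results they move most. In bulk tissue, fewer cells of a type and less RNA per cell cannot be told apart.

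The name given to the 8 genes was checked against defining Schwann cell markers, of which 7 of 10 were in the table. Gfra3, a receptor of the artemin pathway, had medians of 0.884 CPM in ESE mice and 0.277 CPM in ground controls. It had 1 to 93 counts in ESE mice and 0 to 33 in ground controls. Ground control replicates 1, 4 and 5 had 0 counts, so the median there lay near the floor. Kcna1, a potassium channel, had medians of 1.29 CPM in ESE mice and 1.71 CPM in ground controls, with 1 to 67 counts in ESE mice and 1 to 55 in ground controls. Egr2, with a median of 18.7 CPM in ESE mice and 25.9 CPM in ground controls, was clearly counted. Sox10 had a median of 5.25 CPM in ESE mice and 3.73 CPM in ground controls but varied widely. It had 8 to 682 counts in ESE mice and 9 to 380 in ground controls. Both Egr2 and Sox10 are also made by other cells of the skin. Together the 7 markers summed to 24.5 to 48.8 CPM in ESE mice and 33.8 to 52.9 CPM in ground controls, and the ranges overlapped.

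Scaled by annotated length, Erbb3 exceeded all other members by more than its spread. It averaged 57.4 ± 18.8 CPM per kb in ESE mice (SD, n = 10) and 72.9 ± 14.2 CPM per kb in ground controls (SD, n = 6). Its partner Erbb2 was close, at 55.0 ± 17.0 CPM per kb in ESE mice and 63.6 ± 20.6 CPM per kb in ground controls. Mbp, Prx and Pmp22 came next, with 3.59 ± 2.54, 3.46 ± 1.29 and 2.96 ± 2.83 CPM per kb in ESE mice. In ground controls Mbp had 4.88 ± 2.89, Prx 3.36 ± 0.985 and Pmp22 2.86 ± 1.71 CPM per kb, and neighbours in this order did not differ beyond their spread. Scn7a averaged 1.78 ± 4.07 CPM per kb in ESE mice and 0.860 ± 1.48 CPM per kb in ground controls, with an SD above the mean in both. Ncam1, Cdh19 and Mag were lowest, at 0.535, 0.350 and 0.250 CPM per kb in ESE mice and 0.544, 0.260 and 0.325 CPM per kb in ground controls. Per length, Erbb3 thus stood alone, and Mag, which is specific to myelinating glia, was among the lowest.

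**Figure D1:**
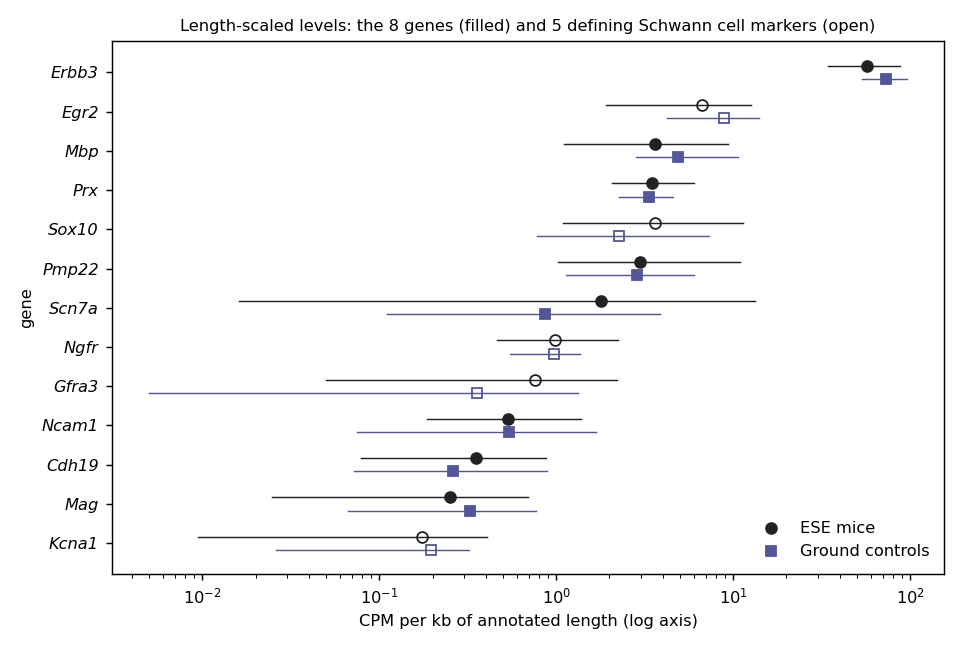
Mean level per kb of annotated length (CPM per kb, log axis) of the 8 genes (filled) and of 5 defining Schwann cell markers (open) in ESE mice (circles) and ground controls (squares). Lines run from the lowest to the highest library, with a library at 0 drawn at 0.01 CPM. Erbb3 lies far right of the others, whereas Ncam1, Cdh19 and Mag have means below 1 CPM per kb.

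The first comparison asked whether the genes differed between all ESE mice and the ground controls. None of the 7 members that passed the filter on low counts passed the threshold of 0.05 on adjusted p by the quasi-likelihood test of edgeR, and 0% of all 13577 genes did. At an unadjusted p under 0.05 the count of members was also 0, against 7.86% of all genes. DESeq2, limma-voom and edgeR's likelihood ratio test also called 0 members. The median log2 change (the log2 of the fold change, fitted by edgeR) of the members was 0.04, against -0.04 for all genes, with 4 members above 0 and 3 below, while 45.3% of all genes lay above 0. Mag, with 1 to 21 counts per library, did not pass the filter in this fit.

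Myelin genes lay on both sides of 0. Mbp had a lowest, median and highest level of 7.43, 18.3 and 62.7 CPM in ESE mice, against 18.9, 26.4 and 71.7 CPM in ground controls. The groups overlapped, since responder replicate 2 was above all ground controls but 1, while 5 ESE mice lay below the lowest ground control. Its log2 change was -0.44 (SE 0.42, adjusted p = 0.718), and this value was -0.051 without ground control replicate 4 and -0.72 without responder replicate 2. Pmp22 had 2.42, 5.12 and 25.6 CPM in ESE mice, against 2.66, 6.06 and 14.2 CPM in ground controls. A single mouse set the top of each range, non-responder replicate 4 among ESE mice and replicate 6 among ground controls, and the remaining 14 libraries lay between 2.42 and 7.27 CPM. The log2 change of Pmp22 was 0.05 (SE 0.46, adjusted p = 0.975). Prx varied less between mice, with 10.8, 16.4 and 31.7 CPM in ESE mice against 11.9, 17.1 and 23.9 CPM in ground controls, and a log2 change of 0.04 (SE 0.25, adjusted p = 0.959). Mag, untested here, had a median of 0.393 CPM in ESE mice and 0.527 CPM in ground controls.

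Erbb3 had the smallest unadjusted p of the members, 0.12. Its lowest, median and highest levels were 139, 217 and 351 CPM in ESE mice, against 215, 288 and 384 CPM in ground controls. The groups overlapped in part, as 5 of 10 ESE mice fell below every ground control and the others lay within the range of the controls. The log2 change was -0.35 (SE 0.21, adjusted p = 0.632). Summed interfollicular keratinocyte markers, 12 of 13 of them in the table, moved with it, with a median of 16458 CPM in ESE mice against 24902 CPM in ground controls, and their part in the Erbb3 difference was not tested.

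Genes of adhesion and excitability were the most scattered. Cdh19, counted 1 to 52 times per library, had 0.242, 0.993 and 2.67 CPM in ESE mice against 0.219, 0.380 and 2.72 CPM in ground controls, and its log2 change was 0.40 (SE 0.60, adjusted p = 0.821). The other ground controls lay at or below 0.83 CPM when replicate 6 was set aside, and 6 of 10 ESE mice lay above that. The Cdh19 value was 1.58 without ground control replicate 6, 0.15 without responder replicate 3, 1.51 without ground control replicate 6 and non-responder replicate 4 (unadjusted p = 0.0212, adjusted p = 0.644) and 1.24 by limma-voom (unadjusted p = 0.0298, adjusted p = 0.172). Ncam1 had 1.76, 3.21 and 12.9 CPM in ESE mice against 0.703, 2.77 and 15.8 CPM in ground controls, with a log2 change of -0.02 (SE 0.60, adjusted p = 0.991). The groups overlapped for both genes. Scn7a had 0.118, 2.49 and 97.2 CPM in ESE mice against 0.807, 2.02 and 28.4 CPM in ground controls, a span of libraries wider than for any other member. Its log2 change was 1.03 (SE 1.17, adjusted p = 0.756), and this value was -0.73 without non-responder replicate 4 and 2.83 without ground control replicate 6. Of the 16 fits that each left out 1 library, only that without non-responder replicate 4 reversed the direction of Scn7a. DESeq2 on all libraries also gave the opposite direction, so the direction depended on single libraries and on the tool.

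**Figure D2:**
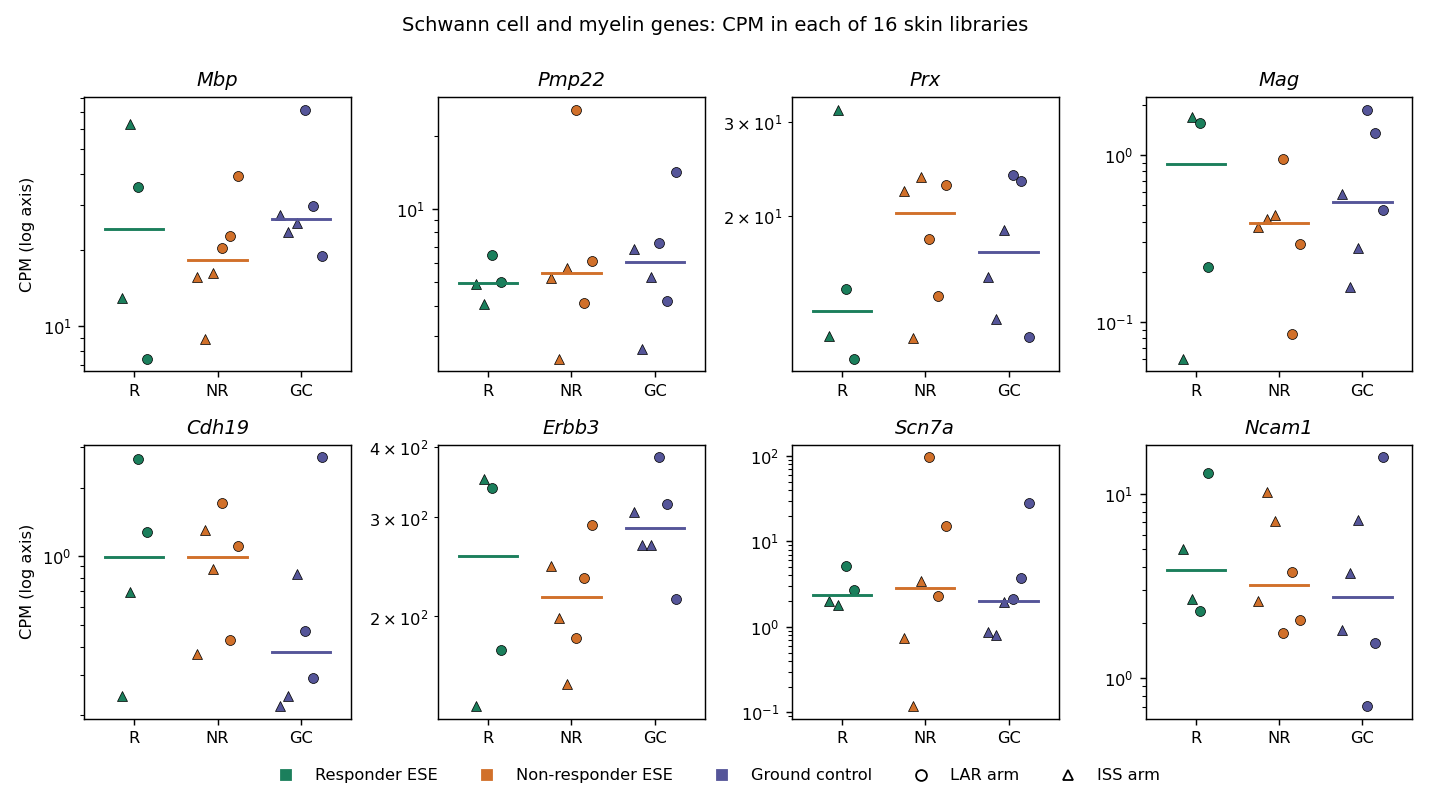
CPM (log axis) of each of the 8 genes in the libraries of the responder ESE cohort (R), the non-responder ESE cohort (NR) and the ground controls (GC), with circles for the LAR arm, triangles for the ISS arm and a line at each group's median. The groups overlap for every gene, and single libraries stand high for Scn7a (97.2 CPM in NR, 28.4 CPM in GC) and Pmp22 (25.6 CPM in NR, 14.2 CPM in GC).

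The second question was whether the cohorts differed. In responders against ground controls, 0 of 8 members passed the threshold in edgeR, where 0.00709% of 14107 genes did, and 0 had an unadjusted p under 0.05, against 3.42% of all genes. In non-responders against ground controls, 0 of 8 members passed, with 0% of all genes, and 0 had an unadjusted p under 0.05, against 6.96%. Between the cohorts the counts were 0 of 8 and 0 of 8, against 0% and 2.17% of all genes. Mbp was measured at 12.9, 62.7, 35.3 and 7.43 CPM in the 4 responders, against 8.91, 18.3 and 39.1 CPM (lowest, median, highest) in the non-responders. The responders thus enclosed the whole range of the non-responders, and the log2 change was 0.52 (SE 0.53). Against the ground controls, Mbp had log2 changes of -0.14 (SE 0.54) in responders and -0.67 (SE 0.48) in non-responders. Erbb3 was measured at 139, 351, 338 and 174 CPM in responders, against 152, 217 and 291 CPM in non-responders, and it split the responders in the same way as Mbp, with replicates 2 and 3 high and replicates 1 and 4 low. Its log2 change against the ground controls was -0.23 (SE 0.27) in responders and -0.43 (SE 0.24, adjusted p = 0.66) in non-responders.

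Scn7a differed most between the cohorts, at 1.99, 1.78, 5.20 and 2.68 CPM in responders against 0.118, 2.88 and 97.2 CPM in non-responders. The responders lay inside the range of the non-responders, and the log2 change was -2.77 (SE 1.47), with an adjusted p that rounded to 1. It was -0.66 without non-responder replicate 4. Mag was measured at 0.0604, 1.68, 1.56 and 0.213 CPM in responders, against 0.0852, 0.393 and 0.948 CPM in non-responders, from 1 to 21 counts, and its log2 change was 0.94 (SE 0.82). Pmp22, Prx, Cdh19 and Ncam1 had log2 changes of -0.69 (SE 0.58), -0.12 (SE 0.32), 0.28 (SE 0.74) and 0.32 (SE 0.76) between the cohorts.

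The third question was whether the ESE difference depended on the arm. For the difference between the arms in the effect of ESE, 0 of 8 members passed the threshold, with 0% of 14381 genes, and 0 had an unadjusted p under 0.05, against 4.8% of all genes. Within the LAR arm, the ESE mice against their ground controls gave 0 of 8 members called and 0 at an unadjusted p under 0.05, against 0% and 9.37% of all genes. Within the ISS arm the counts were again 0 and 0, against 0% and 2.39%. Erbb3 had log2 changes of -0.32 (SE 0.32) in the LAR arm and -0.37 (SE 0.32) in the ISS arm, a difference of 0.06 (SE 0.45). Mbp had -0.67 (SE 0.61) in the LAR arm and -0.13 (SE 0.62) in the ISS arm. The member with the largest difference between arms in size was Mag, at -1.65 (SE 1.39), on a few counts per library.

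A separate question was whether mice of the LAR arm differed from those of the ISS arm. Among ESE mice, 0 of 8 members passed the threshold (0% of all genes) and 1 member, Scn7a, had an unadjusted p under 0.05, against 5.44% of all genes. Among ground controls, which stayed on Earth in both arms, 0 of 8 members passed (0% of all genes) and Scn7a was again the 1 member with an unadjusted p under 0.05, against 9.07% of all genes. Scn7a had 97.2, 2.30, 15.3, 5.20 and 2.68 CPM in ESE mice of the LAR arm, against 0.745, 0.118, 3.47, 1.99 and 1.78 CPM in ESE mice of the ISS arm. Only the value of 3.47 CPM in the ISS arm reached into the range of the LAR arm. The log2 change was 3.84 (SE 1.14, unadjusted p = 0.00412, adjusted p = 0.538), and 1.89 without non-responder replicate 4. In ground controls Scn7a had 2.11, 3.69 and 28.4 CPM in the LAR arm, against 0.876, 0.807 and 1.94 CPM in the ISS arm, with no overlap. There the log2 change was 3.38 (SE 1.5, unadjusted p = 0.0399, adjusted p = 0.523), and 1.41 without ground control replicate 6.

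Averaged over both exposures, a comparison added after these values were seen, 0 of 8 members passed in edgeR's quasi-likelihood test (0% of all genes). At an unadjusted p under 0.05 there were 3 members, all higher in the LAR arm, against 11.9% of all genes (8.27% higher). Scn7a had a log2 change of 3.61 (SE 0.96, adjusted p = 0.335), Cdh19 of 1.36 (SE 0.58, adjusted p = 0.38) and Pmp22 of 0.95 (SE 0.42, adjusted p = 0.398). Cdh19 was 0.48 without ground control replicate 6, Pmp22 was 0.52 without non-responder replicate 4, and without both libraries Scn7a, Cdh19 and Pmp22 were 1.63, 0.43 and 0.23. Scn7a alone of the members passed by DESeq2 (adjusted p = 0.00361) and by edgeR's likelihood ratio test (adjusted p = 0.0206). The share of all genes called by these tests is not given here, so these calls do not show that Scn7a stood out among all genes. Endothelial markers, 11 of 11 of them in the table, moved in the same direction. Their sum had a lowest, median and highest value of 19.7, 66.9 and 743 CPM in ESE mice of the LAR arm against 12.7, 45.7 and 50.3 CPM in the ISS arm, and of 21.3, 43.9 and 211 CPM in ground controls of the LAR arm against 16.7, 18.5 and 29.9 CPM in the ISS arm. With the summed endothelial level as a covariate, an alternative chosen after seeing the data, the Scn7a log2 change was 0.81 (SE 0.40, unadjusted p = 0.0614), that of Pmp22 was 0.06 (SE 0.34) and that of Cdh19 was 0.70 (SE 0.70). Because this sum varied with Scn7a in the same libraries and its medians were higher in the LAR arm, the fit cannot tell the 2 apart. The part of the endothelial level in the arm difference was not tested.

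**Figure D3:**
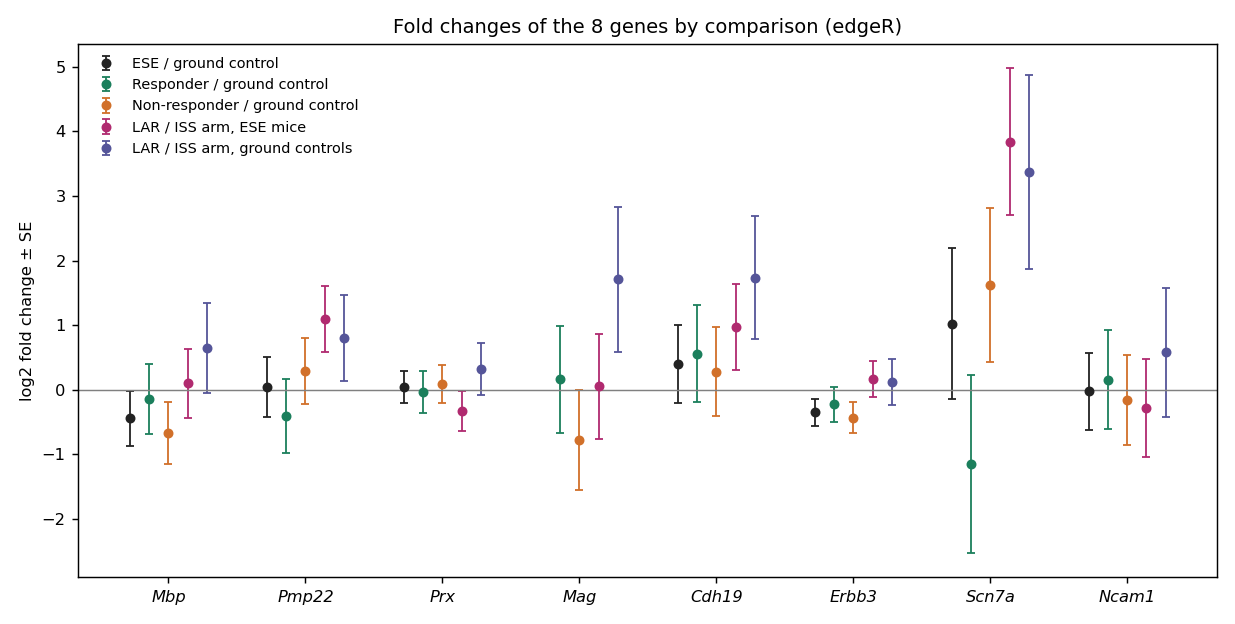
Log2 fold changes (points) and their SE (bars) of the 8 genes by edgeR in 5 comparisons, those of ESE mice, responders and non-responders with ground controls and those of the LAR arm with the ISS arm in ESE mice and in ground controls. Most intervals of 1 SE reach across or near 0, and Scn7a is highest in the LAR arm in both ESE mice (3.84) and ground controls (3.38). Mag has no value in the comparison of all ESE mice.

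The genes did not vary as 1 group over the 16 libraries. Of 28 pairs of members, 17 had a Pearson correlation above 0 and 11 below 0 on log2 CPM, and 6 pairs had an adjusted permutation p under 0.05, of which 4 were positive and 2 negative. All 124 relations computed, 28 between members, 80 with summed markers and 16 with RNA quality, were adjusted together by Benjamini-Hochberg. Mbp and Erbb3 formed a tight pair, with r = 0.83 (permutation p = 8e-05, adjusted p = 0.00248) and Spearman rho = 0.90 (permutation p = 2e-05, adjusted p = 0.00248). Without the 2 libraries farthest from the median of Mbp, r was 0.79. Within the LAR arm it was 0.89 and within the ISS arm 0.76, with 8 libraries each. Mbp was also positively related to Prx (r = 0.68, permutation p = 0.00352, adjusted p = 0.0283; rho = 0.68, permutation p = 0.00499, adjusted p = 0.0516), at 0.59 without its 2 extreme libraries. For Mbp and Mag r was 0.63 (permutation p = 0.00871, adjusted p = 0.0491) and rho 0.59 (permutation p = 0.0177, adjusted p = 0.105), and r was 0.52 without those libraries.

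Ncam1 ran opposite to Mbp and Erbb3. Its r with Mbp was -0.74 (permutation p = 0.00129, adjusted p = 0.0123), with rho = -0.68 (permutation p = 0.00478, adjusted p = 0.0516) and r = -0.56 without the 2 libraries extreme in Mbp (-0.82 in the LAR arm, -0.59 in the ISS arm). Its r with Erbb3 was -0.64 (permutation p = 0.0079, adjusted p = 0.0466), with rho = -0.64 (permutation p = 0.00951, adjusted p = 0.0786) and r = -0.68 without the 2 libraries extreme in Erbb3 (-0.70 in the LAR arm, -0.60 in the ISS arm). The order of libraries shows this directly: ground control replicate 4 had the highest Mbp and Erbb3, 71.7 and 384 CPM, and the lowest Ncam1, 0.703 CPM. Responder replicate 4 had the lowest Mbp, 7.43 CPM, and the second highest Ncam1, 12.9 CPM.

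Scn7a and Pmp22 formed a second pair, with r = 0.86 (permutation p = 0.00015, adjusted p = 0.00372) and rho = 0.61 (permutation p = 0.0133, adjusted p = 0.0915). This relation leaned on ground control replicate 6 and non-responder replicate 4, since r was 0.58 without them, and it was 0.89 in the LAR arm and 0.63 in the ISS arm. With Mbp, r was 0.17 for Scn7a (permutation p = 0.524, adjusted p = 0.755) and 0.12 for Pmp22 (permutation p = 0.646, adjusted p = 0.801). Cdh19 had r = 0.55 with Scn7a (permutation p = 0.0258, adjusted p = 0.103), but 0.29 without those 2 libraries and -0.13 in the ISS arm.

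**Figure D4:**
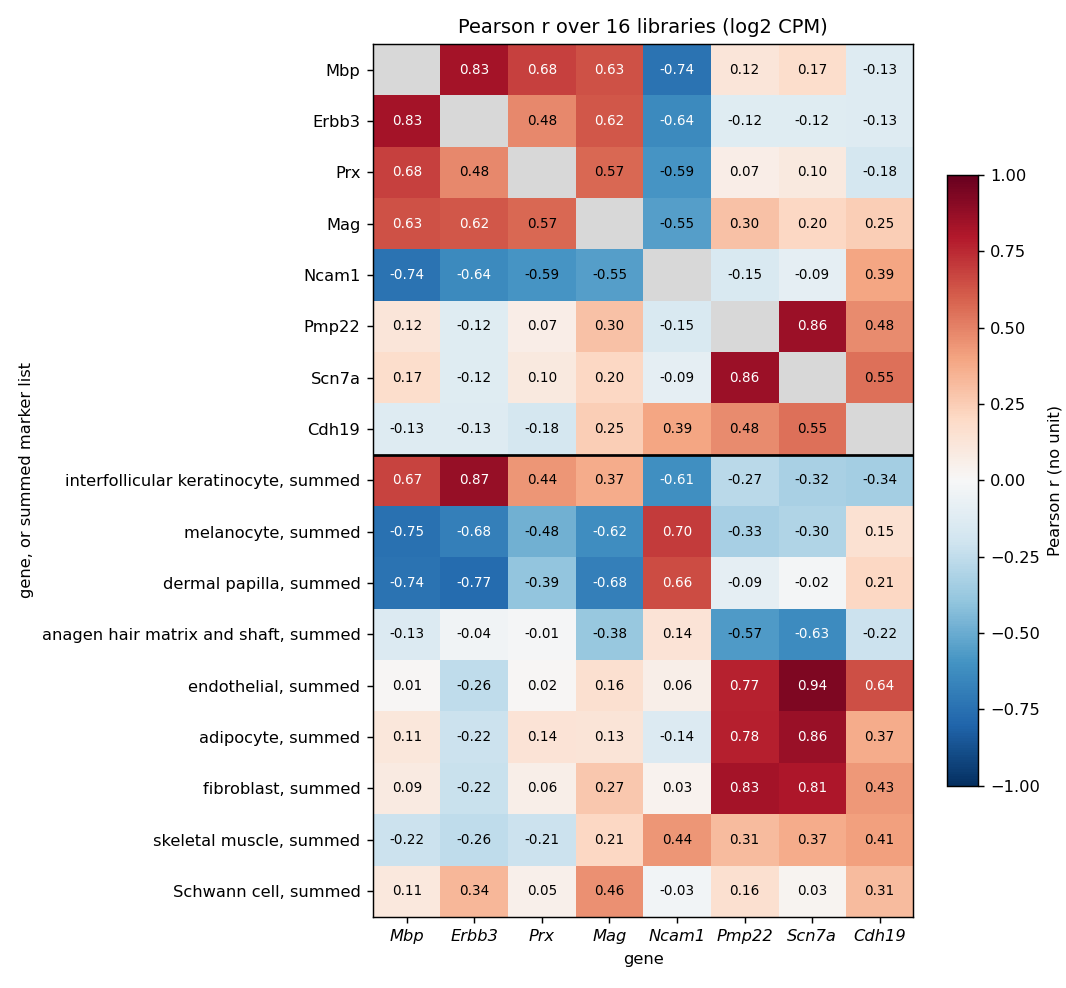
Pearson r over 16 libraries (colour and number, no unit) between the 8 genes (columns) and, in rows, the same genes and the summed levels of marker lists, all as log2 CPM. Mbp, Erbb3, Prx and Mag have positive r with each other and negative r with Ncam1 (r = -0.74 to -0.55). Among these pairs only those of Mbp, and Erbb3 with Ncam1, had an adjusted permutation p under 0.05. Scn7a has r = 0.94 with endothelial markers. Pmp22 has 0.77 with them (0.31 without ground control replicate 6 and non-responder replicate 4) and Cdh19 0.64 (0.50 without these libraries).

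Each gene was then set against summed markers of the cell types a skin sample holds. Erbb3 followed interfollicular keratinocyte markers, with r = 0.87 (permutation p = 2e-05, adjusted p = 0.000827) and rho = 0.81 (permutation p = 0.00025, adjusted p = 0.0103). Without the 2 libraries extreme in these markers r was 0.84, and it was 0.94 in the LAR arm and 0.85 in the ISS arm. Mbp followed them less closely, with r = 0.67 (permutation p = 0.00385, adjusted p = 0.0283), rho = 0.64 (permutation p = 0.00883, adjusted p = 0.0782) and r = 0.71 without the extreme libraries (0.76 in the LAR arm, 0.61 in the ISS arm). Both genes ran against dermal papilla markers, the signalling cells at the hair base. For Erbb3 r was -0.77 (permutation p = 0.00062, adjusted p = 0.00961) and rho -0.78 (permutation p = 0.00043, adjusted p = 0.0133), with -0.77 without the extreme libraries, -0.90 in the LAR arm and -0.63 in the ISS arm. For Mbp r was -0.74 (permutation p = 0.0009, adjusted p = 0.0112) and rho -0.73 (permutation p = 0.00162, adjusted p = 0.0287), with -0.84 without the extreme libraries, -0.77 in the LAR arm and -0.68 in the ISS arm.

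Ncam1 was positively related to melanocyte markers, all 11 of which were in the table, with r = 0.70 (permutation p = 0.00285, adjusted p = 0.0252) and rho = 0.68 (permutation p = 0.00484, adjusted p = 0.0516). Here r was 0.53 without the 2 libraries highest in melanocyte markers, and 0.91 without ground control replicate 6 and non-responder replicate 4. It was 0.58 in the LAR arm and 0.92 in the ISS arm. With dermal papilla markers Ncam1 had r = 0.66 (permutation p = 0.00643, adjusted p = 0.0399) and rho = 0.60 (permutation p = 0.0155, adjusted p = 0.101). Mbp and Erbb3 ran against melanocyte markers, with r = -0.75 (permutation p = 0.00082, adjusted p = 0.0112) and -0.68 (permutation p = 0.00388, adjusted p = 0.0283). The libraries with the highest Ncam1 were ground control replicate 6, with 15.8 CPM beside the highest muscle sum, responder replicate 4 with 12.9 CPM and non-responder replicate 2 with 10.2 CPM. The last 2 had the highest melanocyte sums, of 808 and 716 CPM, against 20.4 to 279 CPM in the other libraries.

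Over all 16 libraries Scn7a followed endothelial markers more closely than any other member followed any marker list. Over all libraries r was 0.94 (permutation p = 1e-05, the smallest the resamples allow, adjusted p = 0.000827) and rho 0.88 (permutation p = 4e-05, adjusted p = 0.00248). It was 0.86 without the 2 libraries extreme in endothelial markers and 0.84 without ground control replicate 6 and non-responder replicate 4. Without the latter pair, r was higher for Ncam1 with melanocyte markers (0.91) and for Erbb3 with keratinocyte markers (0.89). For Scn7a and endothelial markers r was 0.96 in the LAR arm and 0.77 in the ISS arm. In ESE mice it was 0.93 over 10 libraries and in ground controls 0.98 over 6. Scn7a also followed adipocyte markers, with r = 0.86 (permutation p = 2e-05, adjusted p = 0.000827), rho = 0.73 (permutation p = 0.00196, adjusted p = 0.0304) and r = 0.75 without the extreme libraries (0.85 in the LAR arm, 0.71 in the ISS arm). With fibroblast markers Scn7a had r = 0.81 (permutation p = 0.00055, adjusted p = 0.00961) and rho = 0.55 (permutation p = 0.0295, adjusted p = 0.131). That r was 0.44 without ground control replicate 6 and non-responder replicate 4, 0.76 in the LAR arm and 0.91 in the ISS arm. Pmp22 had r = 0.83 with fibroblast markers (permutation p = 0.00052, adjusted p = 0.00961), but rho was 0.43 (permutation p = 0.102, adjusted p = 0.284) and r was 0.39 without ground control replicate 6 and non-responder replicate 4, so this relation rested on those libraries. Its r was 0.92 in the LAR arm and 0.32 in the ISS arm. The same holds for Pmp22 and endothelial markers, with r = 0.77 (permutation p = 0.00127, adjusted p = 0.0123) but rho = 0.47 (permutation p = 0.0701, adjusted p = 0.237), r = 0.31 without those libraries and 0.21 in the ISS arm.

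**Figure D5:**
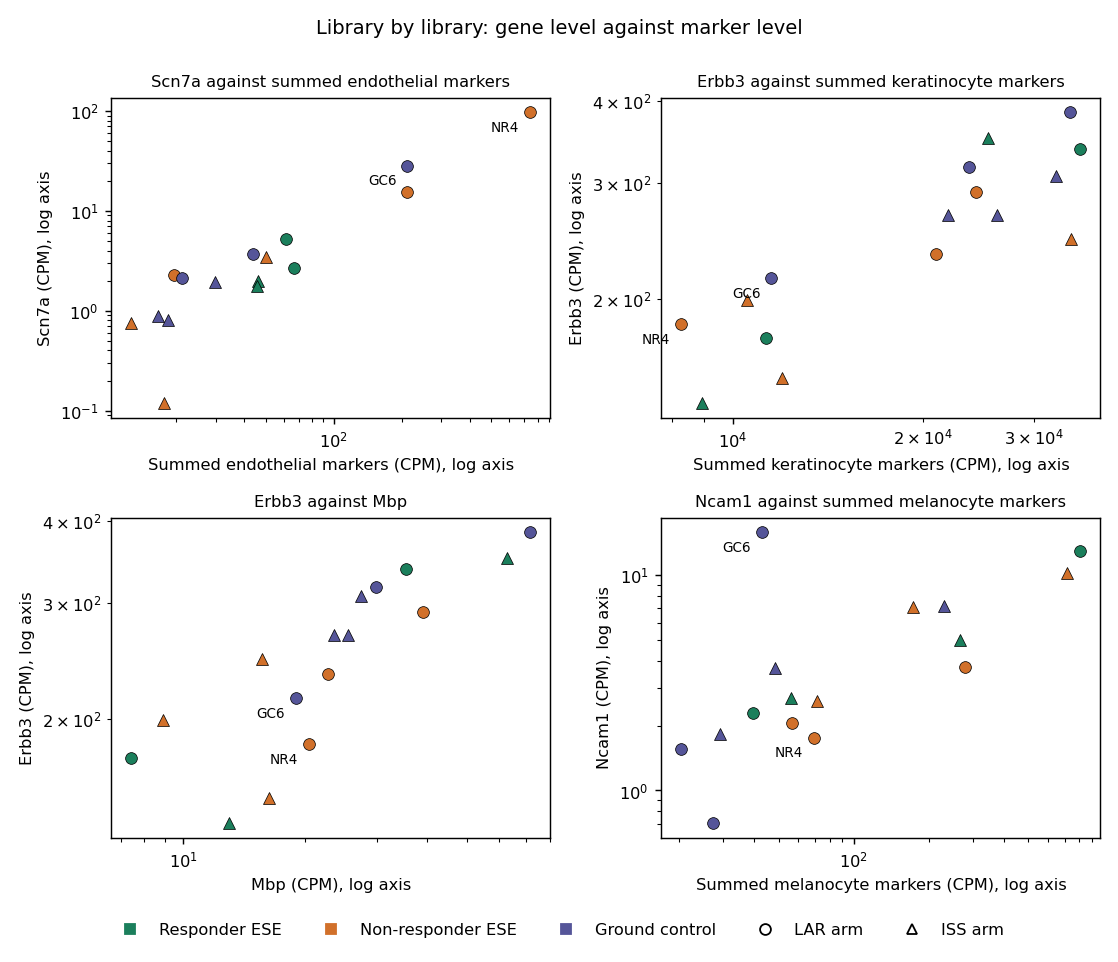
Levels in each of 16 libraries (CPM, log axes): Scn7a against summed endothelial markers, Erbb3 against summed keratinocyte markers, Erbb3 against Mbp, and Ncam1 against summed melanocyte markers, coloured by group, with circles for the LAR arm and triangles for the ISS arm. NR4 and GC6 mark non-responder replicate 4 and ground control replicate 6, which lie at the upper end of Scn7a, and GC6 lies off the trend of Ncam1 (15.8 CPM).

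The defining Schwann cell markers were then set against the 8 genes in the same way. The r of the 8 genes with the sum of the 7 markers ran from -0.03 to 0.46, and no relation had an adjusted permutation p under 0.05. Much of this sum came from Egr2 and Sox10, which other cells of the skin also make. Egr2 gave 41.6 of 52.9 CPM in ground control replicate 1 and 37.5 of 48.8 CPM in responder replicate 2. Sox10 alone was 30.8 CPM in non-responder replicate 4. The sum is therefore no measure of Schwann cells alone, and whether the 8 genes followed Schwann cell content was not tested. With RIN the r of the 8 genes ran from -0.29 to 0.48, and with the share of ribosomal RNA reads from -0.45 to 0.46, and none of these 16 relations passed either.

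Other genes of the same cells and pathways, in lists of known members, were read from the comparison of ESE mice with ground controls. No gene of any list passed the adjusted threshold, so the counts are given at an unadjusted p under 0.05, against 3.06% of all genes higher and 4.8% lower. Of myelin proteins and lipid enzymes, 8 of 19 were tested, and 0 were higher and 0 lower. Sirt2, a deacetylase abundant in myelinating glia, had a log2 change of -0.28 (SE 0.18), and Ndrg1, mutated in a human demyelinating neuropathy, of -0.38 (SE 0.45). Of the genes of the node of Ranvier and of axon-glia contact, 12 of 15 were tested, 1 was higher and 0 lower. The 1 was Cntnap1, which encodes the axonal protein Caspr beside the node, with 12.3, 32.6 and 53.4 CPM (lowest, median, highest) in ESE mice against 9.19, 15.1 and 35.4 CPM in ground controls. Its groups overlapped, and its log2 change was 0.87 (SE 0.33, adjusted p = 0.624). Ank3, which anchors sodium channels at the node, had a log2 change of -0.48 (SE 0.23).

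Of the transcription factors of Schwann cells, 12 of 15 were tested, 0 were higher and 1 lower. This was Tead1, a partner of the Hippo pathway factors Yap and Taz, with a lowest, median and highest level of 16.5, 20.8 and 38.8 CPM in ESE mice against 22.7, 34.6 and 47.4 CPM in ground controls. Its groups overlapped, and its log2 change was -0.60 (SE 0.23, adjusted p = 0.624), while Egr2 had -0.41 (SE 0.30). Of neuregulin and receptor genes, 16 of 18 were tested, 1 was higher and 0 lower. Ntrk3, which encodes the neurotrophin receptor TrkC, had 0.372, 2.49 and 25.7 CPM in ESE mice against 0.657, 1.18 and 1.61 CPM in ground controls, with a log2 change of 2.31 (SE 0.75, adjusted p = 0.624). The ESE range enclosed that of the controls. Of genes of non-myelinating and immature Schwann cells, 19 of 28 were tested, 0 were higher and 1 lower, and the 1 was Cryab, a small heat shock protein also abundant in muscle, at -2.31 (SE 0.90, adjusted p = 0.624). Skeletal muscle markers moved the same way, with 18 of 23 tested genes lower at an unadjusted p under 0.05 and a median log2 change of -3.70. This was not shared by both arms. The median was -4.86 in the LAR arm but 0.87 in the ISS arm, where 21 of 24 tested genes lay above 0. Ground control replicate 6, of the LAR arm, held 313448 CPM of these markers. The median sum was 2192 CPM in ESE mice and 1713 CPM in ground controls. Of the axon genes, 2 of 15 were tested, and of the perineurial and endoneurial genes 9 of 12, with 0 higher and 0 lower in both lists. Among them, Tubb3, a neuronal tubulin, had 2.15 (SE 1.27) and Slc2a1, the glucose transporter of the perineurium, -0.54 (SE 0.38). The median log2 changes of the 7 lists, in the order given, were 0.10, -0.20, 0.00, -0.13, 0.25, 0.71 and -0.01, against -0.04 for all genes.

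The genes most like the 8 members were ranked by Pearson r with the mean standardized log2 CPM of the 7 members tested in the comparison of ESE mice with ground controls, over 16 libraries and among 12962 other genes. This is a ranking and no test. Slc9a3r2, which encodes a scaffold protein of the NHERF family, came first with r = 0.92 and rho = 0.95, and r was 0.93 without ground control replicate 6 and non-responder replicate 4. It had 1.62, 3.67 and 30.7 CPM in ESE mice against 2.18, 4.66 and 13.8 CPM in ground controls, lowest, median and highest. Tmod2 (r = 0.89), Trak1 (0.88), Ly6c1, Sgsm1 and Lman1 (0.84 each), Zdhhc14 (0.84), Npdc1 and Ifi35 (0.84 each) and Cuedc1 (0.83) followed. The genes most opposite were Cenpa (r = -0.91), a centromere histone, 1190002F15Rik (-0.90) and Aspm (-0.90), a spindle protein, of which Cenpa and Aspm are known from dividing cells.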

How the data were processed

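Per the labels and the study's methods, RNA from the skin of 16 mice was enriched for exons with capture probes and sequenced, and the authors aligned reads to mm10 with STAR, left out low-quality and multi-mapped reads and counted them per gene with featureCounts. The deposited values used were raw read counts. The deposited log2 FPKM values and the authors' fold changes and p-values were not used. RIN, DV200 (a percent of RNA fragments) and shares of ribosomal reads were taken as other values the authors deposited. The strand used in counting was not given in the sources used here. All 16 count columns matched a labelled sample. Single values of 2 of the defining markers are not reported here.

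Counts were tested with edgeR 4.0.16 (R 4.3.3; filterByExpr, TMM, robust quasi-likelihood F test, Benjamini-Hochberg over all genes, threshold 0.05) in 3 fits, of 2 groups (13577 genes), 3 groups (14107 genes) and exposure by arm (14381 genes). Alternatives were DESeq2 1.42.0, limma 3.58.1 (voom with quality weights), edgeR's likelihood ratio test, other size factors, filters and covariates, and leaving out libraries. Correlations took log2 CPM (prior count 2) and 100000 resamples. The steps were tested on simulated data, but the size of change they could detect is not given here. Mice were assigned to an arm by their names in the study's supplementary sample table, not by the GEO labels. Each library came from a separate mouse, so p-values measure the spread between mice. The 8 genes were named in each comparison, with up to 4 genes of smallest p in each list and the 10 genes most like the members. The members and lists were chosen with earlier results of these data known.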

Additional observations from a re-analysis of the deposited data

Results flagged for a closer look

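A library stood apart from the others of its group in 7 of 32 tests of a member in a group. The rule was the ratio of its gap to the whole range (Dixon's 95% limit), where chance gives about 5% for normal values. CPM were used without logs, and the non-responders were also counted among the ESE mice. The 7 of 32 therefore cannot be set against 5%. Mbp was 71.7 CPM in ground control replicate 4, against 29.9 CPM in the next ground control. Cdh19 was 2.72 CPM in ground control replicate 6, against 0.83 CPM in the next. Pmp22 was 25.6 CPM in non-responder replicate 4, against 6.12 CPM in the next non-responder and 6.46 CPM in the next ESE mouse. Scn7a was 97.2 CPM in the same library, against 15.3 CPM in the next non-responder and ESE mouse, and 28.4 CPM in ground control replicate 6, against 3.69 CPM in the next ground control. Non-responder replicate 4 also had the highest endothelial and adipocyte sums, and ground control replicate 6 the highest muscle sum, and their part in these values was not tested.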

How the results depend on the processing

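The count of members called stayed at 0 in every alternative that was run, leaving out single libraries included, with 1 exception. In the arm contrast averaged over exposures it was 1 (Scn7a, log2 fold change 3.58) by DESeq2 and by the likelihood ratio test. The share of all genes called by these tests is not given here, so this does not show that Scn7a stood out among all genes. Not every alternative was run on every comparison. The ESE contrasts within each arm, and those of the arms within ESE mice or within ground controls, had fewer. They were not refitted by DESeq2, limma-voom or the likelihood ratio test, nor with other size factors or filters. Directions of uncalled members did change, and the cause was not tested. With DESeq2, Scn7a was -0.79 in ESE mice against ground controls. With limma-voom, Ncam1 was 0.86 in ESE mice and 0.68 in non-responders, Mag -0.26, Pmp22 0.15 and Scn7a 0.84 in responders, all against ground controls, Pmp22 0.077 and Scn7a 0.058 in responders against non-responders, and Scn7a -0.16, Mbp 0.40 and Pmp22 -0.23 for the difference between arms in the ESE effect. With the arm as a covariate, Pmp22 was -2.94e-05 in ESE mice and Cdh19 -0.023 between the cohorts. With the muscle sum as a covariate, Ncam1 was 0.59 in ESE mice, 0.80 in non-responders, -0.37 between the cohorts and 0.29 for the difference between arms, Cdh19 was -0.58 between the cohorts and Erbb3 -0.016 for the difference between arms. Without Rn45s, Ncam1 was 0.026 in ESE mice. Without ground control replicate 6 and non-responder replicate 4, chosen after seeing the data, Ncam1 was 0.93 in ESE mice, 0.87 in non-responders and 1.71 for the difference between arms (and, with its direction kept, 0.997 in responders), Pmp22 -0.07, -0.12 and, between the cohorts, 0.10, Prx -0.03 in ESE mice, Scn7a 0.65 in responders, and Cdh19 0.89 and Erbb3 -0.05 for the difference between arms. Without libraries over 39% ribosomal reads, Mbp was 0.0062 in ESE mice, 0.23 in responders and 0.086 for the difference between arms, where Scn7a was -0.45, and Ncam1 was -0.0068 and Prx 0.10 in responders.

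Leaving out 1 library at a time turned 59 of 704 member values. The following ranges are those of values that changed sign. In ESE mice against ground controls the ranges were -0.26 to 0.80 for Ncam1, -0.44 to 0.43 for Pmp22, -0.083 to 0.15 for Prx and -0.73 to 2.83 for Scn7a. In responders they were -0.13 to 1.73 for Cdh19, -0.36 to 0.56 for Mag, -0.82 to 0.24 for Mbp, -0.60 to 0.98 for Ncam1, -0.50 to 0.14 for Prx and -1.57 to 0.65 for Scn7a. In non-responders they were -0.52 to 0.66 for Ncam1, -0.48 to 0.67 for Pmp22, -0.0013 to 0.24 for Prx and -0.46 to 3.43 for Scn7a. Between the cohorts they were -0.41 to 0.57 for Cdh19, -0.15 to 0.81 for Mbp, -0.49 to 0.71 for Ncam1, -0.92 to 0.09 for Pmp22 and -0.59 to 0.010 for Prx. For the difference between arms they were -1.39 to 0.99 for Cdh19, -0.14 to 0.30 for Erbb3, -0.89 to 0.26 for Mbp, -1.73 to 1.52 for Ncam1, -0.50 to 0.89 for Pmp22 and -1.42 to 2.43 for Scn7a. Mag and Cdh19 rested on few counts, which limits any statement on them.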
